A study of Mus musculus with 6 samples.

Results

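The glycolytic pathway of mouse embryonic stem (ES) cells was examined through 32 listed genes for glucose and lactate transporters, glycolytic enzymes and the enzymes that direct pyruvate. Members were taken by name: a probe set was included where the array's annotation gave it exactly 1 of these symbols. Of the 32 genes, 29 had such a probe set among those tested, 58 probe sets in all. Each gene was summarised by its probe set with the highest mean over the 6 arrays, as was done for 18193 genes in all. Gapdh was present only on array control probe sets and on probe sets shared with other genes. No probe set carried the symbol Gpi1 or Eno1 in the annotation used here. Values are RMA expression on the log2 scale, where a step of 1 is a doubling, and changes are knockout minus parental. A probe set was taken as above background where the higher group mean exceeded 3.78, the level below which 95% of olfactory and vomeronasal receptor probe sets lay. By this measure 27 of the 29 genes were above background, all except Pgk2 and Pdha2.

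The study compared 1 Dppa4 knockout ES cell line with 1 Dppa4 hemizygous ES cell line, labelled its parental line, with 3 arrays per line. The comparison line is hemizygous, not wild type. With 1 line per genotype, a difference between lines and an effect of the gene cannot be told apart. Cells of both genotypes grew on mouse embryonic fibroblast feeders, so each value is a mixture of ES cell and fibroblast RNA. In such a mixture, fewer cells of a type and less RNA per cell cannot be told apart.

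Glycolysis splits glucose into pyruvate in the cytosol and yields a little ATP and NADH. Pyruvate is then either reduced to lactate, which regenerates NAD+ and leaves the cell through monocarboxylate transporters, or oxidised in mitochondria by the pyruvate dehydrogenase complex. Pluripotent cells are known for high glycolytic flux, and several of the steps are catalysed by isozymes from separate genes, some of which are used almost only in muscle, brain or sperm.

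The members showed no shared shift. Of the 29 genes, 0 passed the test at an adjusted p under 0.05 (limma with Benjamini-Hochberg adjustment over 45037 probe sets), where 0.605% of all genes passed. At an unadjusted p under 0.05 the count was 8 of 29, with 4 genes higher and 4 lower in knockout arrays, against 11.0% of all genes. Changes ran from -0.50 (Pdha2) to 0.50 (Eno3) with a median of -0.02, and the median over all genes was 0. Pdha2 was below background, and without it and Pgk2 the changes ran from -0.37 to 0.50, with 4 genes higher and 3 lower at an unadjusted p under 0.05. Among the 58 member probe sets, 1 passed, a probe set of Ldhc that was higher in knockout arrays, where 0.402% of all probe sets passed. In 4 of the 27 genes above background all knockout arrays lay above all parental arrays (Pfkm, Eno3, Ldhc and Pdk1), which held for 8.49% of all genes above background. In another 4 they lay below (Pfkp, Pgam1, Ldhb and Pdk3), against 10.2%.

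**Figure D1:**
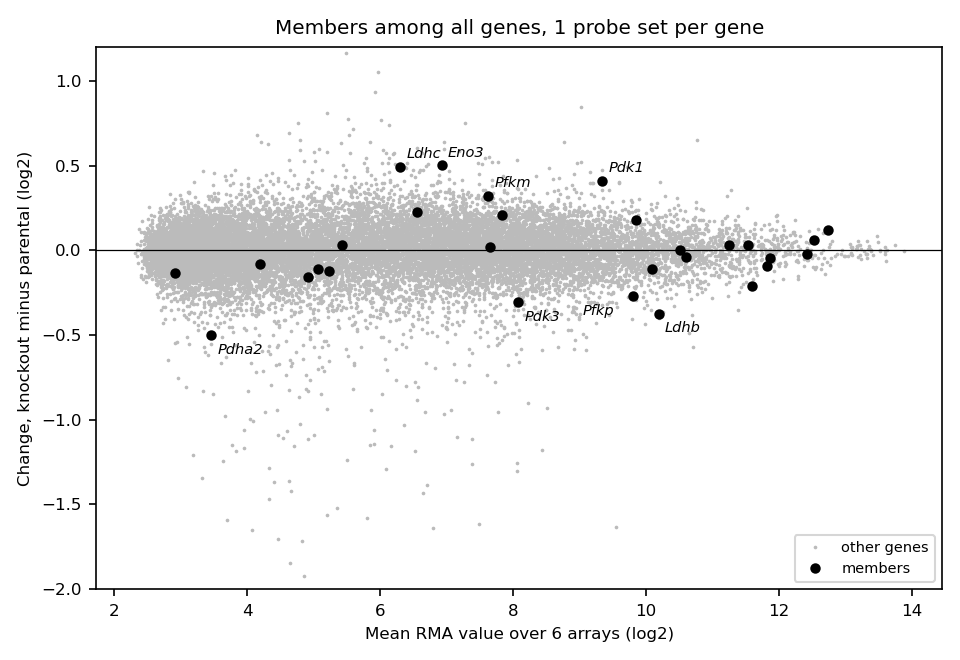
Change between knockout and parental arrays (vertical, log2) against the mean RMA value over 6 arrays (horizontal, log2) for 18193 genes, with the 29 members as black points. Members with an unadjusted p under 0.05 are named, and all members lie between -0.50 and 0.50. The vertical axis ends at -2 and leaves out 11 genes that are no members.

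The glucose transporters showed small changes that did not pass. Slc2a3, which encodes the high-affinity transporter GLUT3, read 11.72, 11.87 and 11.50 in parental arrays and 11.47, 11.44 and 11.54 in knockout arrays. Parental replicate 3 lay within the knockout range, and the change of -0.21 (SE 0.10, n = 3 per group) did not pass (adjusted p = 0.571, limma). The other 3 probe sets of Slc2a3 gave -0.19, -0.25 and -0.21. Slc2a1, which encodes GLUT1, had a change of 0.03 (95% interval -0.24 to 0.30), and its other probe sets gave -0.07 and -0.18. The hexokinases phosphorylate glucose on entry. Hk2, the inducible form, read 10.70, 10.64 and 10.51 in parental and 10.55, 10.62 and 10.56 in knockout arrays. These values overlapped throughout (change -0.04, 95% interval -0.22 to 0.14). Hk1, the form found in most tissues, had a change of 0.02 (95% interval -0.18 to 0.22), and its other probe set gave 0.16 (adjusted p = 0.653, limma).

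The 3 phosphofructokinase subunits, which catalyse the committed step of the pathway, differed in the sign of their changes. Pfkm, the muscle-type subunit, read 7.49, 7.37 and 7.53 in parental and 7.65, 7.99 and 7.72 in knockout arrays. All knockout arrays were above the parental ones, by 0.32 on average (SE 0.10, adjusted p = 0.362, limma). Pfkp, the platelet-type subunit, read 9.97, 10.06 and 9.79 in parental and 9.48, 9.77 and 9.76 in knockout arrays. Here the groups were separated by only 0.02 between their nearest arrays, and the change was -0.27 (SE 0.11, adjusted p = 0.490). The other probe sets of Pfkp gave -0.20 and -0.21, both with overlapping groups. Pfkl, the liver-type subunit, read 9.69, 9.97 and 9.60 in parental and 9.84, 9.95 and 10.01 in knockout arrays. Parental replicate 2 lay inside the knockout range, and the change was 0.18 (95% interval -0.07 to 0.43). The other probe sets of Pfkl gave 0.15 and 0.22, both with overlapping groups. Fructose-2,6-bisphosphate, which activates phosphofructokinase, is made and removed by the Pfkfb enzymes. Pfkfb4 read 5.48, 5.31 and 5.46 in parental and 5.51, 5.33 and 5.51 in knockout arrays, with a change of 0.03 (95% interval -0.17 to 0.23). Pfkfb3 had a change of -0.11 on one probe set and of 0.10 on the other, and neither passed (limma, adjusted p = 0.847 on the former, 0.866 on the latter).

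**Figure D2:**
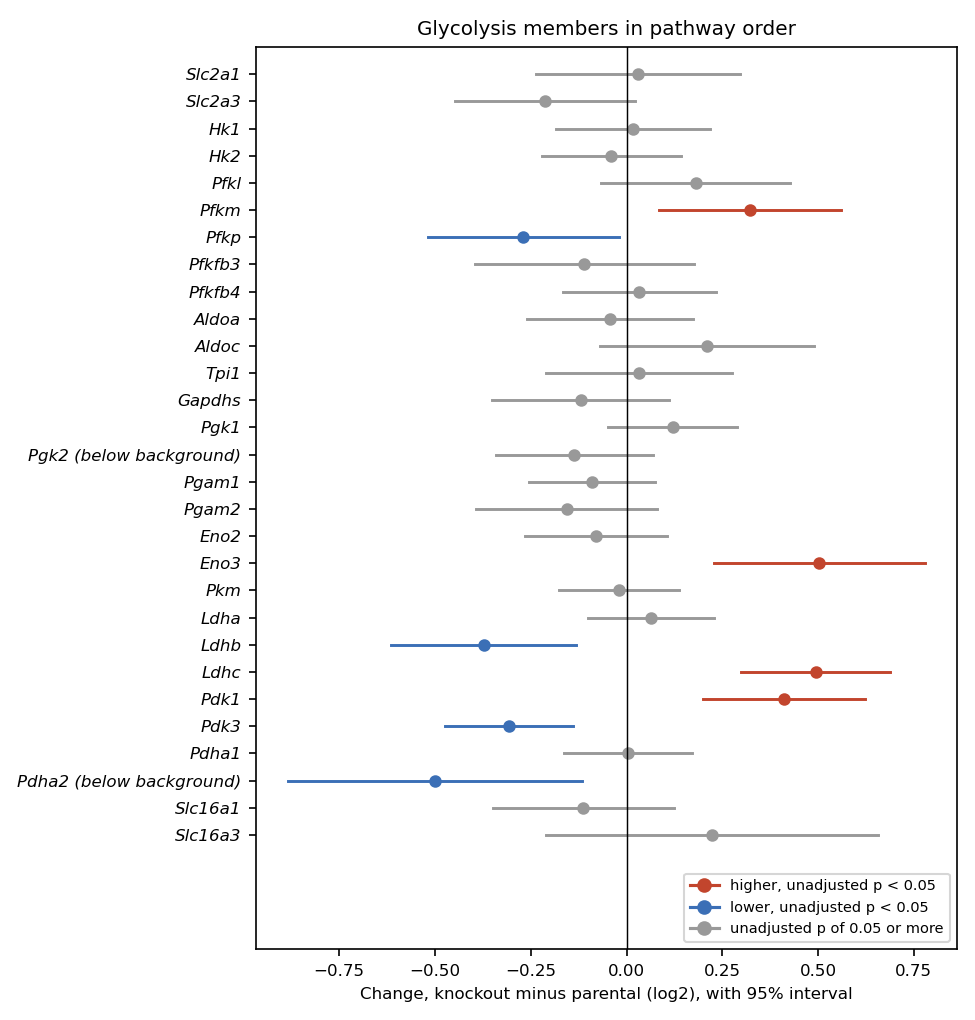
Change of each of the 29 member genes (points, log2, knockout minus parental) with the 95% interval of the limma fit (bars), listed from glucose entry at the top to lactate export at the bottom. Red and blue mark 4 higher and 4 lower genes with an unadjusted p under 0.05, and the intervals of the other 21 genes include 0.

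From aldolase to pyruvate kinase, no gene passed and most changes were close to 0. Aldoa, the aldolase of muscle and most proliferating cells, read 11.82, 12.06 and 11.80 in parental and 11.76, 11.87 and 11.92 in knockout arrays. The 2 lines overlapped, with a change of -0.04 (95% interval -0.26 to 0.17). All 5 Aldoa probe sets carry the x_at ending, which marks probes that can also match other transcripts. Aldoc, the brain form, had a change of 0.21 (adjusted p = 0.662), and Tpi1, which interconverts the triose phosphates, one of 0.03 (95% interval -0.21 to 0.28). The other probe sets of Tpi1 gave 0.09 and 0.13, both with overlapping groups. Gapdh, which makes the NADH of the pathway, had no tested probe set of its own, only array controls left out of the test and tested probe sets shared with other genes. Its control probe set for the 3' end read 13.27, 13.34 and 13.28 in parental and 13.35, 13.33 and 13.33 in knockout arrays. The control probe set for the 5' end differed from it by -0.11 to -0.05 in parental and by -0.09 to -0.04 in knockout arrays (3' minus 5'), so this sign of RNA integrity overlapped between the lines. A probe set shared by Gapdh and 4 other annotated genes averaged 13.62 in both groups (adjusted p = 0.992, limma). Because RMA gives the arrays a shared distribution, these values are relative to the rest of each array.

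Pgk1, the X-linked kinase of the first ATP-yielding step, read 12.64, 12.75 and 12.63 in parental and 12.75, 12.82 and 12.81 in knockout arrays. A value of 12.75 occurred in both lines, and the change was 0.12 (95% interval -0.05 to 0.29). The other probe sets of Pgk1, both with the x_at ending, gave 0.19 and 0.16, with all knockout arrays above all parental arrays. Neither passed (adjusted p = 0.440 and 0.534, limma). Pgam1, the phosphoglycerate mutase of most tissues, read 11.85, 11.93 and 11.82 in parental and 11.74, 11.80 and 11.79 in knockout arrays. The knockout arrays lay below the parental ones, but the step was small (-0.09, SE 0.07, adjusted p = 0.771). Pgam2, its muscle counterpart, had a change of -0.16 (adjusted p = 0.710) with overlapping arrays.

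Of the enolases, Eno3, the muscle form, had the highest change among the probe sets that represent the members, close to that of Ldhc (0.49), which was higher on its other probe set (0.78). It read 6.48, 6.93 and 6.61 in parental and 7.08, 7.18 and 7.27 in knockout arrays. Every knockout array was higher, although parental replicate 2 came within 0.15 of the lowest of them. The difference was 1.42-fold (0.50, SE 0.12) and did not pass (adjusted p = 0.201, limma). Without each array in turn it ranged from 0.41 to 0.63, with adjusted p from 0.0824 to 0.506 (limma). The change was below that of Ldhc without parental replicate 1 (0.41 against 0.53) and without knockout replicate 3 (0.46 against 0.545). Eno2, the neuronal enolase, had a change of -0.08 (95% interval -0.27 to 0.11). Pkm, the pyruvate kinase gene whose M2 splice form is typical of proliferating cells, read 12.43, 12.46 and 12.41 in parental and 12.43, 12.41 and 12.40 in knockout arrays. This was among the closest agreements in the list (-0.02, 95% interval -0.18 to 0.14), and its probe set does not separate the splice forms by name.

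The lactate dehydrogenases included the one member probe set that passed the test. Ldha and Ldhb encode the subunits of the tetramers that interconvert pyruvate and lactate, and Ldhc encodes a subunit used in male germ cells and sperm. In the RefSeq table Ldha and Ldhc are neighbours on chromosome 7 with 0 protein-coding genes between them. The 250 bases before the first RefSeq start of these 3 genes, and of Pdk1 described further on, are shown. These were chosen because Ldhc and Pdk1 were the members that passed when their probe sets were averaged, and Ldha and Ldhb are the relatives of Ldhc. In that averaged fit the share of all genes that passed was not counted. The windows were read from GRCm38.p6 on the strand of each gene. Capitals mark ACGTG or GCGTG on either strand, the core to which hypoxia-inducible factors (HIF) bind.
Ldha, chr7:46845554-46845803, plus strand: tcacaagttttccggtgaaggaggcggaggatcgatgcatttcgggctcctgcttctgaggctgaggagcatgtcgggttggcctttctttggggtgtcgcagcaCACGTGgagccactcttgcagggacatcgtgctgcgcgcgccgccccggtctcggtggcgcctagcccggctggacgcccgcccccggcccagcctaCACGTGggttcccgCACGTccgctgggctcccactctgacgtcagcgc
Ldhb, chr6:142507958-142508207, minus strand: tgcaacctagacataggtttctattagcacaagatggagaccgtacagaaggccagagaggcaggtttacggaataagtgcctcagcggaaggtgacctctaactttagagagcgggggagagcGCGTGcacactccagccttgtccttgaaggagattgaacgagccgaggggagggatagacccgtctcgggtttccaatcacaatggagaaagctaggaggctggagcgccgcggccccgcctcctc
Ldhc, chr7:46861013-46861262, plus strand: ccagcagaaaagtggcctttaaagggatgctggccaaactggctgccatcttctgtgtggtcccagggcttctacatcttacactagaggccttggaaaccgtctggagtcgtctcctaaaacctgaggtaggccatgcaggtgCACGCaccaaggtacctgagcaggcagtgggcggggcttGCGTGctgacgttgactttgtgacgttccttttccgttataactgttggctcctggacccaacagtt
Pdk1, chr2:71872974-71873223, plus strand: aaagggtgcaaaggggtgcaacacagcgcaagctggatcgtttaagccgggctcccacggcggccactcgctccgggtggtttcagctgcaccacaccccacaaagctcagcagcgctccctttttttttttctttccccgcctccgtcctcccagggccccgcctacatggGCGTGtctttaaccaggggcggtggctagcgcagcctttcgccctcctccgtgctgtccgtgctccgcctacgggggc
The Ldha window held 3 capital stretches and 25 CpG dinucleotides, that of Ldhb 1 and 14, that of Ldhc 2 and 8, and that of Pdk1 1 and 19. Windows for 31 of the 32 members were found. With 1 window per gene, that of the first start, 21 members (67.7%) held either motif, as did 43.9% of protein-coding genes. The share over all windows, with several for some genes, was 38.6%. The median CpG count was 13 in members, 10 in protein-coding genes and 6 in all windows. A match is a description of the letters and no evidence of binding.

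Ldha read 12.50, 12.56 and 12.44 in parental and 12.53, 12.58 and 12.58 in knockout arrays, which overlapped (0.06, 95% interval -0.10 to 0.23). Ldhb read 10.34, 10.56 and 10.24 in parental and 9.88, 10.02 and 10.12 in knockout arrays. Each knockout array lay below each parental one, a 1.30-fold difference (-0.37, SE 0.11, adjusted p = 0.285, limma). The other 3 probe sets of Ldhb gave -0.36, -0.39 and -0.35, again with no overlap, and their adjusted p ran from 0.171 to 0.297. These 4 probe sets are annotated to the same gene and were read in the same RNA, so they are not independent of each other. The probe set that represents Ldhb and the one that gave -0.35 carry the x_at ending, so their probes can also match other transcripts.

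Ldhc was the one member with a probe set that passed. On its probe set with the ending _a_at it read 4.32, 4.52 and 4.33 in parental and 5.25, 5.16 and 5.10 in knockout arrays. It thus rose 1.72-fold with a wide gap between the lines (0.78, SE 0.09, adjusted p = 0.00911, limma). On this probe set the parental mean of 4.39 was not far above the background level of 3.78. The exact permutation p of a comparison of 3 against 3 arrays cannot go below 0.1. On the other probe set, which represents the gene in the summaries, values were 6.14, 6.08 and 5.96 in parental and 6.62, 6.59 and 6.45 in knockout arrays. This change of 0.49 (1.41-fold, SE 0.08) had no overlap either and narrowly missed the threshold (adjusted p = 0.0651). The call on the _a_at probe set was lost when parental replicate 1 was left out (0.75, adjusted p = 0.0660). It was also lost when knockout replicate 1 was left out (0.74, adjusted p = 0.0556). With the mean of the feeder markers as a covariate the change was 0.66 (adjusted p = 0.170). With the mean of both probe sets the gene passed (0.64, adjusted p = 0.00809, limma). That p was adjusted over 18193 genes, not over probe sets, and the share of all genes that passed in that fit was not counted.

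Set against Ldha on the same array, Ldhb stood at -2.16, -2.0 and -2.20 in parental and -2.65, -2.56 and -2.46 in knockout arrays. This difference of the probe sets' log2 values has no meaning as a ratio of transcripts, but a constant offset of an array cancels in it. Its shift between the lines was -0.44, and -0.45 with quantile normalization applied again. The pair was chosen after its values were seen, with Ldhb already lower in each knockout array, so the shift is a description with no test.

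**Figure D3:**
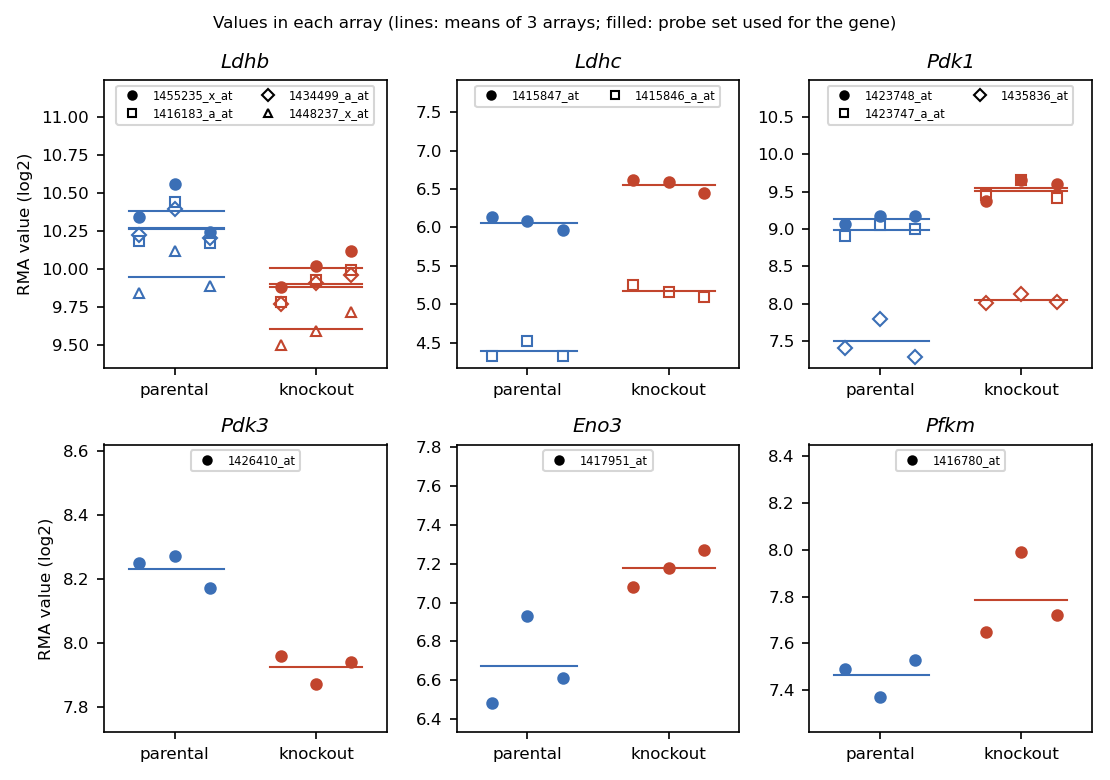
RMA values (log2) in each of the 3 parental (blue) and 3 knockout (red) arrays for every probe set above background of Ldhb, Ldhc, Pdk1, Pdk3, Eno3 and Pfkm, with lines at group means and filled symbols for the probe set that represents the gene. The vertical axes differ between panels and do not start at 0. No probe set shown has overlapping groups.

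Pyruvate dehydrogenase kinases phosphorylate the E1 alpha subunit of the pyruvate dehydrogenase complex and so lower its activity. Pdk1 read 9.07, 9.17 and 9.17 in parental and 9.38, 9.66 and 9.60 in knockout arrays. The knockout arrays were all higher, by 1.33-fold (0.41, SE 0.09, adjusted p = 0.169, limma). Its other probe sets above background gave 0.53 (adjusted p = 0.0651) and 0.56 (adjusted p = 0.184), both without overlap, while 1 below background gave 0.14. Averaged over all 4 probe sets the gene passed (0.41, adjusted p = 0.0447, limma, adjusted over 18193 genes and not over probe sets). Here too, the share of all genes that passed was not counted. Pdk3, a second kinase of the family, encoded on the X chromosome, read 8.25, 8.27 and 8.17 in parental and 7.96, 7.87 and 7.94 in knockout arrays. It had the opposite sign, again with no overlap (-0.31, SE 0.07, adjusted p = 0.196).

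The log2 value of Pdk1 minus that of Pdk3 was 0.82, 0.90 and 1.0 in parental and 1.42, 1.79 and 1.66 in knockout arrays. Its shift was 0.72 and ranged from 0.63 to 0.82 without each array in turn. This pair, too, was chosen after its values were seen, and since Pdk1 was higher and Pdk3 lower in each knockout array, their difference had to separate the lines. Pdha1, the X-linked E1 alpha subunit that the kinases act on, read 10.54, 10.46 and 10.51 in parental and 10.57, 10.49 and 10.46 in knockout arrays. These values were interleaved (0.00, 95% interval -0.16 to 0.17), and its other probe set gave -0.16 (adjusted p = 0.633).

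Of the testis forms among the members, Gapdhs, Pgk2 and Pdha2 had changes below 0, and none of the 3 passed. Gapdhs, the sperm counterpart of Gapdh, read 5.26, 5.25 and 5.37 in parental and 5.15, 5.36 and 5.01 in knockout arrays (-0.12, 95% interval -0.35 to 0.11). Pgk2, the retrogene of Pgk1 used in spermatogenesis, was below background in every array, at 3.08, 3.02 and 2.84 against 2.76, 2.92 and 2.85. Pdha2, the testis retrogene of Pdha1, read 3.36, 4.11 and 3.67 in parental and 3.19, 3.30 and 3.15 in knockout arrays. Only parental replicate 2 lay above the background level, so no fold is given, and the change of -0.50 (SE 0.17) did not pass (adjusted p = 0.390, limma). Ldhc, described above, had a positive change. Of 5 measured testis forms outside the members 0 passed, with 2 changes above 0 and 3 below. Eno4 had a change of -0.27 (adjusted p = 0.450) and Aldoart2 one of -0.18 (adjusted p = 0.632), both near background, while Ldhal6b had one of 0.07.

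The monocarboxylate transporters carry lactate and pyruvate across the cell membrane. Slc16a1, which encodes MCT1, read 10.06, 10.24 and 10.13 in parental and 10.23, 9.93 and 9.93 in knockout arrays, with knockout replicate 1 inside the parental range (-0.11, 95% interval -0.35 to 0.12). Slc16a3, which encodes the lactate exporter MCT4, read 6.25, 6.87 and 6.20 in parental and 6.39, 6.79 and 6.81 in knockout arrays. Arrays of each line varied by over 0.4, more than the change of 0.22 (95% interval -0.21 to 0.66).

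Arrays of 1 line differed among themselves in a way that many members shared. Of the 27 genes above background, 20 had their highest parental value in replicate 2, as did 38.9% of all genes above background. In 17 of the 27 the lowest parental value was in replicate 3, against 36.4% of all genes above background. Among knockout arrays, replicate 1 was the lowest in 15 of 27, against 31.0% of all genes above background. The mean of the 27 genes was 8.92, 9.05 and 8.87 in the parental and 8.92, 9.0 and 8.99 in the knockout arrays. The means of the lines thus lay closer (8.95 ± 0.09 and 8.97 ± 0.04, SD, n = 3) than arrays within the parental line. Slc2a1, Slc2a3, Pfkl, Aldoa, Aldoc and Slc16a3 followed this pattern in the parental arrays, whereas Pfkm and Pfkfb4 had their lowest value in replicate 2. This order of the parental arrays was not particular to the members. It was present in the mean of all 18193 genes (5.90, 5.91 and 5.89), in the feeder markers (10.38, 10.46 and 10.34), in the ES cell markers (10.62, 10.67 and 10.61) and in each other list except the testis forms. Over all probe sets the highest correlations were within lines (0.9967 for parental replicates 1 and 3, 0.9964 for knockout replicates 1 and 3). Some arrays still correlated more closely with an array of the other line than with 1 of their own. Parental replicate 2 correlated with knockout replicate 3 at 0.9958, with parental replicate 3 at 0.9953 and with parental replicate 1 at 0.9961. Likewise, parental replicate 3 correlated with knockout replicate 2 at 0.9957, while knockout replicates 2 and 3 correlated at 0.9952. The part of this pattern in the members' changes was examined only by leaving out each array in turn. The change of Slc2a3 then ranged from -0.31 to -0.13, the latter without parental replicate 2, and that of Pfkp from -0.34 to -0.17, the latter without knockout replicate 1. That of Slc16a3 ranged from 0.10 without parental replicate 3 to 0.44 without parental replicate 2. The same arrays gave the lowest and highest values of Pfkl (0.10 and 0.29) and Aldoc (0.12 and 0.33). Pdha2 reached -0.30 without parental replicate 2. Smaller changes moved as well, with ranges of -0.21 to -0.01 for Pfkfb3, -0.21 to -0.04 for Gapdhs, -0.21 to -0.09 for Pgk2 and -0.21 to -0.06 for Slc16a1, while Pgam2 reached -0.08 without parental replicate 2. None of these genes passed with or without an array left out.

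**Figure D4:**
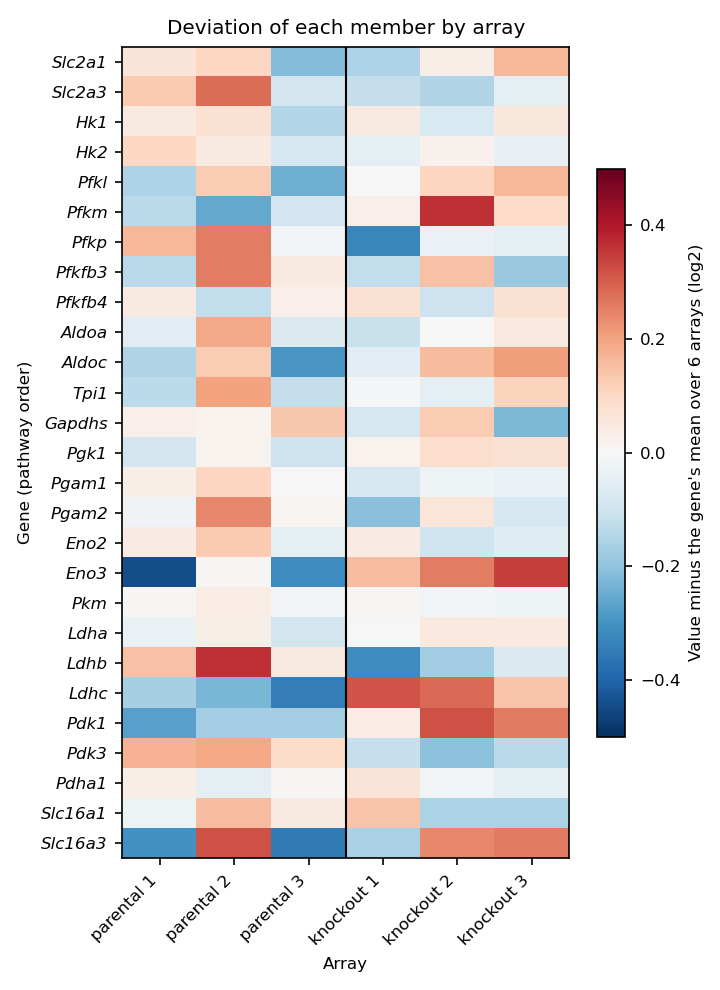
Deviation of each of the 27 members above background (rows, pathway order) from its own mean over 6 arrays, by array (columns), on a log2 colour scale from -0.5 to 0.5. Of the 27 genes, 20 have their highest parental value in replicate 2, while Ldhb, Pdk3, Ldhc and Pdk1 change colour at the line between the groups.

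Other genes of carbohydrate metabolism and its regulators were read from 8 lists with 100 measured genes, of 110 listed. None of the 100 passed the test (limma), 7 had an unadjusted p under 0.05 (2 higher, 5 lower), and their median change was 0.02. In the tricarboxylic acid cycle, 0 of 19 passed, with 13 changes above 0 and 6 below. Its lowest p belonged to Suclg2, a subunit of succinyl-CoA synthetase (-0.22, adjusted p = 0.360), and Aco1, the cytosolic aconitase (0.20, adjusted p = 0.492). In the pyruvate dehydrogenase list, 0 of 10 passed, with Dld, the E3 subunit gene, at 0.18 (adjusted p = 0.526) and Pdhb, the E1 beta subunit gene, at 0.14 (adjusted p = 0.580). In the pentose phosphate pathway, 0 of 7 passed, with Pgd at 0.18 (adjusted p = 0.551) and Taldo1 at -0.17 (adjusted p = 0.567).

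Among 15 other isozymes and regulators of glycolysis, 0 passed. Tigar, a p53-induced gene whose product lowers fructose-2,6-bisphosphate, had a change of -0.27 (adjusted p = 0.339) and Galm, the galactose mutarotase gene, one of 0.14 (adjusted p = 0.648). Of 10 other glucose transporter and hexokinase genes 0 passed, including Hkdc1 (-0.14, adjusted p = 0.660) and Slc2a6 (0.16, adjusted p = 0.705). Of 7 gluconeogenesis genes 0 passed, including Slc37a4 (0.26, adjusted p = 0.557) and Pck2 (0.20, adjusted p = 0.567). In the list of 27 HIF and MYC regulators and hypoxia targets, 0 passed. Mycn, a MYC family gene of ES cells, read 10.42, 10.27 and 10.51 in parental and 9.84, 10.20 and 9.96 in knockout arrays. Its groups did not overlap (-0.40, SE 0.11, adjusted p = 0.275), and Hif1a had a change of 0.14 (adjusted p = 0.602).

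Markers of the cells in culture were read beside these values. Of 19 measured feeder fibroblast markers, 0 passed (limma), 18 changes were above 0 and 2 had an unadjusted p under 0.05, Pdgfrb (0.27) and Lum (0.25). Their mean over arrays ran from 10.34 to 10.46 in parental and from 10.44 to 10.62 in knockout arrays (exact permutation p = 0.2, two-sided). Of 12 ES cell markers, 0 passed, with 5 changes above 0 and 7 below. Nanog had the lowest p (-0.49, adjusted p = 0.122, limma), and the other 11 changes were within 0.2 of 0. The mean of the 12 markers went from 10.63 ± 0.03 to 10.58 ± 0.03 (SD, n = 3), with all knockout arrays below all parental arrays. The exact permutation p was 0.1, the lowest that 3 against 3 arrays can give. Nanog is part of this mean, and the mean without it was not computed. Of 8 endoderm markers 0 passed, with 5 changes above 0 and 3 below, and Dab2 (0.25, adjusted p = 0.682) and Sox7 (0.20, adjusted p = 0.727) had the lowest p. Of 7 markers of red blood cells and muscle 0 passed, with 6 changes above 0 and 1 below. The muscle genes Des (0.08, adjusted p = 0.891) and Acta1 (-0.16, adjusted p = 0.935) were above background, and the red blood cell genes Hba-a1 and Alas2 were below it. With the mean of the feeder markers as a covariate, the change was -0.39 for Ldhb, 0.55 for Pdk1, -0.38 for Pdk3, 0.45 for Eno3, 0.53 for Pfkm and -0.20 for Pfkp, each with the sign it had without it. None of these passed in that fit (limma, adjusted p from 0.278 to 0.776). Dppa4 itself, on the array's probe set, changed by -1.63 (adjusted p = 0.000112, limma), with every knockout array below every parental array. It read 10.30, 10.35 and 10.45 in parental and 8.68, 8.84 and 8.68 in knockout arrays. The knockout values thus remained well above the background level of 3.78, and the source of that signal was not tested.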

How the data were processed

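Total RNA of 6 samples was hybridised to Affymetrix arrays. Expression was deposited as log2 values, 1 per probe set and array, and the submitters' processing notes name RMA. The software and its settings were not given in these sources. The log2 scale was read from the values (2.12 to 13.98). RMA gives arrays a shared distribution (medians 4.21 to 4.25), so a shift of most transcripts would not be seen. After 64 control probe sets were left out, 45037 entered a two-sided moderated test without covariates (limma 3.58.1 under R 4.3.3, functions lmFit and eBayes). Genes were named from probe sets with 1 annotated symbol, and the 29 member symbols matched RefSeq. Promoter windows are from RefSeq (GRCm38.p6). The number of arrays limits the precision.

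Members, gene lists and alternatives were chosen with earlier results of these data known. All members are named; values in every array are given for the highest member of each step with several members, members above background whose groups do not overlap, and testis forms. From each related list, genes that passed, or the 2 above background with the lowest p, are named. Other names, among them Slc2a1, Slc16a3 and Pkm, follow from the pathway order. The labels do not say that replicates were separate cultures, so the p-values describe the spread among these 6 arrays, and that spread may be technical. The procedure was tested on simulated data, with planted changes larger than those of any member probe set. Its power for changes of the members' size was not tested.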

Additional observations from a re-analysis of the deposited data

How the results depend on the processing

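The count of member genes that passed was 0 under every alternative run except averaging each gene over its probe sets, where 2 passed (Ldhc and Pdk1, limma). That fit adjusted p over 18193 genes, not over 45037 probe sets. The share of all genes that passed in it was not counted, so the 2 have no background beside them. The count of related genes that passed was 0 throughout, and the median change of members stayed between -0.07 and 0.0033. The 181 probe sets that passed became 88 with the replicate block, 312 with an intensity trend and robust prior, 39 with the feeder marker mean as a covariate and 70 to 112 without 1 array; the cause was not tested. Arrays share only a replicate number: deviations of same-numbered arrays correlated at 0.112, -0.364 and -0.287, and those of parental 2 with knockout 3 and parental 3 with knockout 2 at 0.371 and 0.379 (best matches of arrays 2 and 3 across the lines had other numbers). With the block, Ldhc on its _a_at probe set had an adjusted p of 0.0636, which says nothing of a weaker effect. Signs of small changes turned in 28 of 432 recomputed values, in 10 genes. Quantile normalization applied again gave -0.00056 for Pdha1. The feeder covariate gave -0.10 for Hk1, -0.082 for Tpi1 and -0.023 for Pdha1. Without 1 array, Hk1 ran from -0.052 to 0.058, Hk2 from -0.093 to 0.0017, Tpi1 from -0.023 to 0.14, Pfkfb4 from -0.02 to 0.093, Aldoa from -0.09 to 0.04, Pdha1 from -0.028 to 0.027 and Slc2a1 from -0.07 to 0.12. Averaging the probe sets gave -0.072 for Slc2a1, -0.077 for Pdha1 and 0.043 for Slc16a1. Other probe sets gave -0.07 and -0.18 for Slc2a1, 0.10 for Pfkfb3, 0.013 for Aldoa, -0.0033 for Aldoc, -0.16 for Pdha1 and 0.20 for Slc16a1. The shifts of Ldhb against Ldha (-0.49 to -0.38 without 1 array) and Pdk1 against Pdk3 were added after seeing the data.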
